A study of Ictidomys tridecemlineatus with 31 samples.

Results

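The genes described here encode the enzymes and modifiers of SUMO conjugation, taken as 8 named genes, Sumo2, Sumo3, Sae1, Uba2, Pias1, Pias2, Senp1, and Senp2. They were found by gene symbol, case ignored, and all 8 were among the 12863 genes of the kidney RNA-seq table. Sumo2 alone had several rows under its symbol, 3 in all, and was represented by the row of highest mean. RNA was measured in whole kidneys of 31 13-lined ground squirrels, a hibernator, with 1 library for each animal, 17 from females and 14 from males. Summer active (SA, 5 animals) and spring dark (SpD, 5 animals) squirrels held a warm body temperature, SA before the hibernation season and SpD after it while still in the hibernaculum. The other states came from the torpor-arousal cycle. Early arousing (EAr, 5 animals) squirrels had begun to rewarm from torpor, late arousing (LAr, 6 animals) squirrels were further along, interbout aroused (IBA, 5 animals) squirrels were warm again, and entrance (Ent, 5 animals) squirrels were cooling into the next torpor bout. All carried implanted temperature devices, by which the states were assigned, and all were anesthetized with isoflurane and perfused before the kidneys were frozen. Libraries of experiment 1 (9 animals, 3 each of IBA, Ent, and SpD) and experiment 2 (22 animals) were made with different kits, and SA, EAr, and LAr came from experiment 2 only. K113 (LAr) and K137 (SA), which the study set aside, were kept out of the tests and are given apart, so the tests used 29 animals.

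SUMO is a small protein related to ubiquitin that cells attach to lysines of other proteins, many of them nuclear. A dimer of Sae1 and Uba2, the E1, activates it, an E2 enzyme takes it over, and E3 ligases such as the PIAS proteins help to place it on a target. SENP proteases trim new SUMO to its mature form and take it off again. SUMO conjugates are known to rise in tissues of hibernating ground squirrels in torpor, and the marks are linked to survival of low oxygen. Transcript levels, the only quantity measured here, do not measure conjugates.

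Levels are batch-corrected rlog values, the authors' log2-scale measure of transcript abundance, so a difference of 1 is a 2-fold change. They are not scaled to transcript length and levels are compared within a gene only. A difference was called at a q, the limma p-value adjusted over all 12863 genes, under 0.001. The tests measure the spread between animals. Counts were not in the table, so the sequencing depth behind a value is unknown.

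Among the 8 genes, Uba2, a subunit of the E1, had the called differences, and the protease Senp1 had the widest range of state means without a call. Across the 6 states, 0 of the 8 genes were called by the limma F test, beside 9.34% of all genes, so 0 of 8 is near the background. Uba2 came nearest, at q = 0.00108. At the looser q threshold of 0.05, Sae1, Uba2, and Senp1 passed, 3 of 8 beside 46.1% of all genes. The same 3 of 8 genes had an unadjusted p of the F test under 0.05, beside 7203 of all 12863 genes. Between all hibernation states (IBA, Ent, EAr, and LAr) and both active states (SA and SpD), Uba2 was the 1 gene of 8 called, and it was higher in hibernation. For all genes the share called in that comparison was 9.73%, and 4.43% were called as higher in hibernation. At 0.05, Sae1, Uba2, and Senp2 passed, 3 of 8 beside 33.4%.

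**Figure D1:**
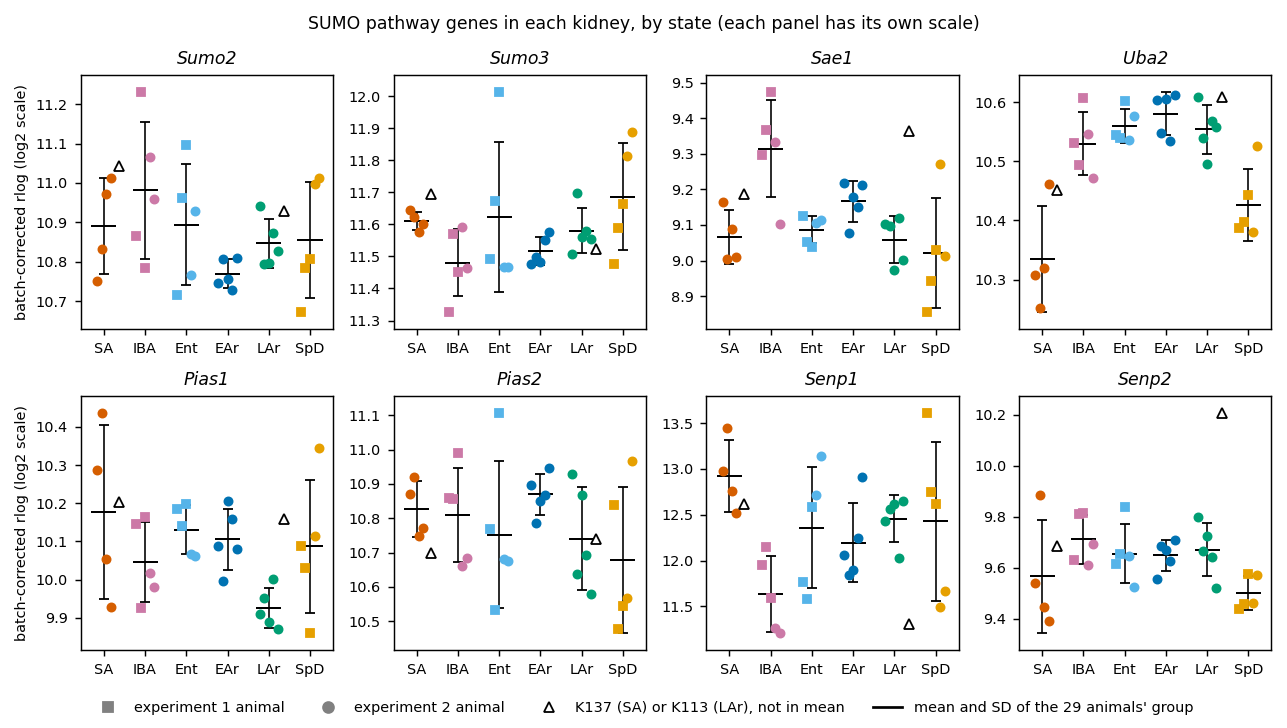
Batch-corrected rlog values (log2 scale, vertical axis, a separate scale for each gene) of the 8 genes in every kidney, by state (horizontal axis). Filled squares are experiment 1 animals, filled circles experiment 2 animals, open triangles K137 (SA) and K113 (LAr), and black bars the mean and SD without those 2 animals. Uba2 lay lower in SA and SpD than in the other states, with means of 10.34 and 10.43 against 10.53 to 10.58, and Senp1 spanned the widest scale, from 11.21 to 13.61 in the 29 animals.

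The 7 sequential steps of the year and of the torpor-arousal cycle gave no call among the 8 genes at 0.001. The shares of all genes called by limma were 3.15% for IBA/SA, 0.746% for Ent/IBA, 0.132% for EAr/Ent, 0.295% for LAr/EAr, 1.43% for IBA/LAr, 1.25% for SpD/IBA, and 0.0544% for SA/SpD, and 5.64% of genes were called in any of them. The numbers of the 8 genes with an unadjusted limma p under 0.05 were 3 for IBA/SA, 2 for Ent/IBA, 2 for IBA/LAr, 5 for SpD/IBA, and 0 for EAr/Ent, LAr/EAr, and SA/SpD, beside 36.3%, 29.4%, 33.4%, 26.6%, 7.16%, 8.33%, and 29.1% of all genes. Across the torpor bout itself, from Ent to EAr, the fitted differences of 7 of the 8 genes lay between -0.17 and 0.15. That of Senp1 was 0.00 with a 95% confidence interval of -0.74 to 0.75. EAr came from experiment 2 only, and in the fit of experiment 2 alone EAr minus Ent of Senp1 was -0.74 (limma q = 0.821). The size of that Senp1 step is therefore uncertain. Of the remaining 8 pairs of states, SA/EAr alone held a call, Uba2, beside 4.49% of all genes, with 1.89% called as lower in SA. The shares of all genes called in the other 7 pairs, where 0 of the 8 genes were called, were 0.855% for SA/Ent, 5.47% for SA/LAr, 1.58% for IBA/EAr, 0.225% for Ent/LAr, 0.630% for Ent/SpD, 1.98% for EAr/SpD, and 2.01% for LAr/SpD. When the states were put in order of their means, 0 of the 40 neighboring pairs over the 8 genes differed at 0.001. Neighbors are by choice the states with the closest means, so this count does not show that the states are alike.

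Among the modifiers, Sumo2 and Sumo3, whose mature proteins are nearly identical and can form chains, had no called difference. Sumo2 was 10.89 ± 0.12 in SA (SD, n = 4), 10.98 ± 0.17 in IBA (n = 5), 10.89 ± 0.15 in Ent (n = 5), 10.77 ± 0.04 in EAr (n = 5), 10.85 ± 0.06 in LAr (n = 5), and 10.85 ± 0.15 in SpD (n = 5). The states overlapped throughout the sequential steps, and the q of the F test was 0.244. The nearest difference of Sumo2 was IBA minus EAr, 0.25 (SE 0.0917, limma q = 0.0558). The IBA kidneys lay at 10.78 (K1), 10.87 (K4), 10.96 (K171), 11.07 (K104), and 11.23 (K7), and the EAr kidneys at 10.73 (K158), 10.75 (K154), 10.76 (K157), 10.81 (K156), and 10.81 (K165). The lowest IBA kidney thus fell within the EAr range.

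The other 2 Sumo2 rows are loci that the authors' table names as Sumo2-like from a sequence match to a human gene, and reads from such near copies can be divided between rows. They were lower on the rlog scale, with means over 31 animals of 9.68 and 8.83 beside 10.88 for the main row, and followed it across the 29 animals with r of 0.90 and 0.68. Their limma q values across states were 0.0742 and 0.0477. For IBA minus EAr they gave 0.30 (q = 0.0214) and 0.21 (q = 0.0531), so the direction was shared by the 3 rows and none was called. The values of Sumo2 are uncertain to the extent that the counting divided its reads.

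Sumo3 was 11.61 ± 0.03 in SA (SD, n = 4), 11.48 ± 0.11 in IBA, 11.62 ± 0.23 in Ent, 11.52 ± 0.04 in EAr, 11.58 ± 0.07 in LAr, and 11.69 ± 0.17 in SpD (n = 5 each). The q across states was 0.29. Its largest sequential step was SpD minus IBA, 0.21 (95% confidence interval 0.03 to 0.38, limma q = 0.118). The SpD kidneys were at 11.48 (K9), 11.59 (K3), 11.66 (K6), 11.81 (K84), and 11.89 (K130), the IBA kidneys at 11.33 (K4), 11.45 (K1), 11.47 (K171), 11.57 (K7), and 11.59 (K104). The SpD kidneys K6, K84, and K130 lay above all IBA kidneys, and K9 and K3 fell within the IBA range.

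The experiments gave different values for Sumo3. Hibernation minus active was -0.10 in the 29 animals (95% confidence interval -0.21 to 0.01, limma q = 0.166). In a fit of the 20 animals of experiment 2 alone it was -0.21 with q = 3.47e-04, which passes the threshold. In that fit SA minus SpD was -0.24 (q = 0.00826) and SpD minus IBA 0.32 (q = 0.0136). In experiment 1, which holds no SA, EAr, or LAr animal, SpD minus IBA was 0.13, and its Ent kidney K8 had the highest Sumo3 of all, 12.01.

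Sae1 and Uba2 encode the subunits of the E1, the step that every SUMO protein must pass. Sae1, the subunit that helps to form the adenylating site, was highest in IBA, at 9.31 ± 0.14 (SD, n = 5). The other states were 9.07 ± 0.08 in SA (n = 4), 9.09 ± 0.04 in Ent, 9.17 ± 0.06 in EAr, 9.06 ± 0.07 in LAr, and 9.02 ± 0.15 in SpD (n = 5 each). IBA kidneys were at 9.10 (K171), 9.30 (K4), 9.33 (K104), 9.37 (K7), and 9.47 (K1). All but K171 lay above every kidney of the other states in the 29 animals, where the highest was the SpD kidney K84 at 9.27.

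For Sae1, 4 of the 15 pairs of states had q under 0.05 and all 4 were those of IBA with SA, Ent, LAr, and SpD. IBA was 0.27 above SA (SE 0.0804, limma q = 0.0201) and 0.27 above LAr (SE 0.0764, q = 0.0168). Ent minus IBA was -0.23 (SE 0.0683, q = 0.0297). SpD minus IBA was -0.29 (SE 0.0683, q = 0.00701), the lowest q of Sae1. None passed 0.001.

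Within the experiments the IBA difference of Sae1 kept its sign and was smaller in experiment 2. SpD minus IBA was -0.44 in experiment 1 and -0.08 in experiment 2, and Ent minus IBA was -0.31 and -0.11. In the fit of experiment 2 alone, with 2 IBA animals, SpD minus IBA had q = 0.658. In the RefSeq annotation of another assembly of this species, mIctTri1.hap1, Sae1 overlaps Bbc3, a gene of apoptosis that had no row in the table, and a small nucleolar RNA, and the other 7 genes overlap no other gene. Whether reads were divided there was not tested.

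Uba2, the catalytic subunit that carries SUMO on a cysteine, was lower in the active states than in hibernation. SA kidneys were at 10.25 (K139), 10.31 (K138), 10.32 (K140), and 10.46 (K141), and SpD kidneys at 10.38 (K84), 10.39 (K9), 10.40 (K3), 10.44 (K6), and 10.53 (K130). IBA kidneys were at 10.47 (K171), 10.49 (K7), 10.53 (K4), 10.55 (K104), and 10.61 (K1). The 15 kidneys of Ent, EAr, and LAr lay between 10.50 and 10.61. The hibernation kidneys and the active kidneys overlapped through K130 alone.

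The mean over hibernation states was 10.56 and over active states 10.38, and the fitted difference was 0.17 (SE 0.0281, 95% confidence interval 0.12 to 0.23, limma q = 5.86e-05), a 1.13-fold change. In all 31 animals it was 0.17 with q = 1.06e-04. In experiment 2 alone it was 0.16 with q = 0.00367 and was no longer called. Leaving out each of the 29 animals in turn gave 0.16 to 0.20, with the call kept each time and the highest q, 3.16e-04, without K139.

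Within that difference, SA minus EAr was -0.24 (SE 0.0469, limma q = 6.31e-04), the lowest q of any pair of states among the 8 genes, and the 4 SA kidneys lay below all 5 EAr kidneys. For all genes, 26.4% had groups that did not overlap there. Leaving out any of 8 animals ended the call, with limma q = 0.00425 without K139, 0.0034 without K138, 0.00304 without K140, and 0.00104 to 0.00226 without each of the EAr animals K154, K156, K157, K158, and K165. It was also lost in all 31 animals (q = 0.00156) and in experiment 2 alone (q = 0.00123). SA minus LAr was -0.22 (q = 0.00149), SA minus Ent was -0.22 (q = 0.00597), and IBA minus SA was 0.20 (SE 0.0519, q = 0.00933). Differences from SpD were smaller and none was called. EAr minus SpD was 0.15 (q = 0.0337), Ent minus SpD 0.13 (q = 0.0533), LAr minus SpD 0.13 (q = 0.0729), and SpD minus IBA -0.10 (q = 0.128). SA minus SpD was -0.09 (95% confidence interval -0.20 to 0.02, q = 0.239).

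The order of Uba2 was EAr, Ent, LAr, IBA, SpD, and SA from high to low, at 10.58, 10.56, 10.55, 10.53, 10.43, and 10.34. Neighbors among the 4 hibernation states differed by at most 0.02, with limma q of 0.776 to 0.976. IBA lay 0.10 above its lower neighbor SpD (q = 0.128). Uba2 was also among the steadiest genes of the table. The SD left after the fit was 0.0557, at percentile 0.218 of all genes, whose median was 0.155.

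PIAS proteins are E3 ligases best known as partners of transcription factors, and both measured members were without a call. Pias1 was 10.18 ± 0.23 in SA (SD, n = 4), 10.05 ± 0.10 in IBA, 10.13 ± 0.06 in Ent, 10.11 ± 0.08 in EAr, 9.93 ± 0.05 in LAr, and 10.09 ± 0.17 in SpD (n = 5 each). The q across states was 0.162. SA minus LAr was 0.25 (SE 0.0873, limma q = 0.0384), and without K139, whose Pias1 was the highest of all animals at 10.44, it was 0.14 (q = 0.233). The LAr kidneys of Pias1 lay at 9.87 (K116), 9.89 (K112), 9.91 (K109), 9.95 (K111), and 10.00 (K115), below all 5 Ent kidneys, which ran from 10.06 to 10.20. For all genes, 3.13% had groups that did not overlap between Ent and LAr. The fitted difference of Pias1, Ent minus LAr, was 0.22 (SE 0.0920, limma q = 0.38) and was not called.

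Pias2 had the highest q across states of the 8 genes. It was 10.83 ± 0.08 in SA (SD, n = 4), 10.81 ± 0.14 in IBA, 10.75 ± 0.21 in Ent, 10.87 ± 0.06 in EAr, 10.74 ± 0.15 in LAr, and 10.68 ± 0.21 in SpD (n = 5 each), with q = 0.494 across states. Its sequential steps ran from -0.13 to 0.18 on the log2 scale, and the 95% confidence interval of the widest, SA minus SpD, was -0.06 to 0.42. That interval reaches 0.42, so the size of this difference of Pias2 remained uncertain. The smallest difference that could be detected with these animals was not computed.

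SENP proteases remove SUMO, and Senp1, which works on all SUMO types, varied most of the 8 genes. Its level was 12.92 ± 0.40 in SA (SD, n = 4), 11.63 ± 0.41 in IBA, 12.36 ± 0.66 in Ent, 12.19 ± 0.43 in EAr, 12.46 ± 0.25 in LAr, and 12.43 ± 0.86 in SpD (n = 5 each). The range of the state means was 1.29, at percentile 97.7 of all genes, and the SD left after the fit was 0.539, at percentile 97.8. The wide spread between animals stood against the wide range of means, and the q across states was 0.0387.

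IBA and SA were the states farthest apart for Senp1. IBA kidneys were at 11.21 (K171), 11.26 (K104), 11.59 (K1), 11.96 (K4), and 12.15 (K7), and SA kidneys at 12.51 (K141), 12.76 (K140), 12.98 (K138), and 13.45 (K139), with no overlap. IBA minus SA was -1.48 (SE 0.376, 95% confidence interval -2.26 to -0.71, limma q = 0.0069), a level in IBA of 0.358 times that in SA, and did not pass 0.001. Groups did not overlap for Uba2 and Senp1 in IBA/SA, 2 of the 8 genes, beside 18.8% of all genes. IBA minus LAr was -1.04 (SE 0.357, q = 0.0458), and with K113 and K137 included it was -0.84 (q = 0.161).

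**Figure D2:**
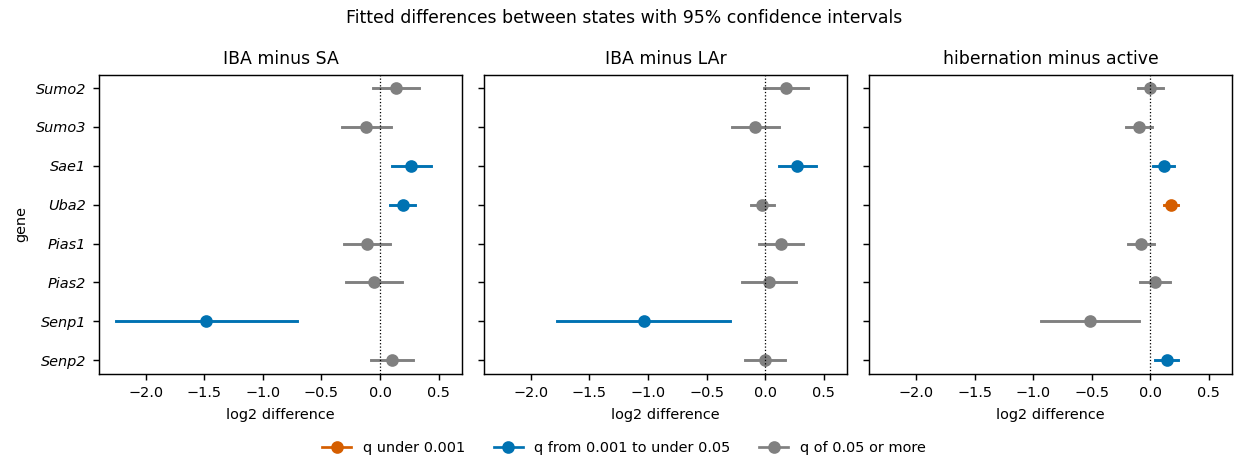
Fitted log2 differences (horizontal axis) with 95% confidence intervals for each of the 8 genes (vertical axis) in IBA minus SA, IBA minus LAr, and hibernation minus active. The difference of Uba2 in hibernation minus active, 0.17, is the only one drawn with q under 0.001, and the Senp1 differences are the widest, at -1.48 and -1.04 for IBA.

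Senp1 values in SpD and Ent divided by experiment. SpD kidneys of experiment 1 were at 12.62 (K6), 12.75 (K3), and 13.61 (K9), and those of experiment 2 at 11.49 (K84) and 11.67 (K130). Ent kidneys went the other way, at 11.58 (K5), 11.77 (K2), and 12.59 (K8) in experiment 1 and 12.71 (K155) and 13.14 (K167) in experiment 2. Ent minus IBA was thus 0.08 in experiment 1 and 1.69 in experiment 2, and SpD minus IBA was 1.09 and 0.34. Hibernation minus active was -0.51 in the 29 animals (limma q = 0.054) and -0.04 in the fit of experiment 2 alone (q = 0.879). The IBA minus SA difference in that fit was -1.64 (q = 0.00183).

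Markers of the proximal tubule, the segment that fills much of the cortex, were also lower in IBA than in SA. All 8 listed proximal tubule markers were in the table, 8 of 8 had a lower mean in IBA than in SA, and 6 of 8 had limma q under 0.05, beside 12.5% of all genes lower at that threshold. Their mean level was 15.51 in SA (15.41 to 15.62), 14.65 in IBA (14.16 to 15.01), 14.94 in Ent (14.57 to 15.34), 15.16 in EAr (14.97 to 15.38), 15.01 in LAr (14.83 to 15.23), and 14.96 in SpD (13.64 to 15.48). The podocyte marker Nphs1 was also lower in IBA, with IBA minus SA at -1.21 (q = 0.0259), and so was Cd79a of B lymphocytes. Of the 29 cell type markers in the table, 9 were lower and 0 higher in IBA than in SA at 0.05, beside 12.5% and 10.4% of all genes, and 0 were called at 0.001. SA, LAr, SpD, Ent, and IBA came in the same order, from high to low, for the proximal tubule marker mean and for Senp1. EAr did not, with the marker mean next below SA and the Senp1 mean next above IBA. The order of LAr, SpD, and Ent is not resolved for Senp1, with limma q = 0.669 between LAr and SpD and 0.909 between SpD and Ent. In SpD, the experiment 1 kidneys K9, K6, and K3 had proximal tubule marker means of 15.44, 15.45, and 15.48. K84 and K130 of experiment 2 had 14.81 and 13.64. In Ent, the experiment 1 kidneys K8, K5, and K2 had 14.57, 14.72, and 15.08. K155 and K167 of experiment 2 had 15.01 and 15.34. The part of the cell type markers in the Senp1 result was not tested. In whole kidneys, fewer cells of a type and less RNA in each cell cannot be told apart.

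**Figure D3:**
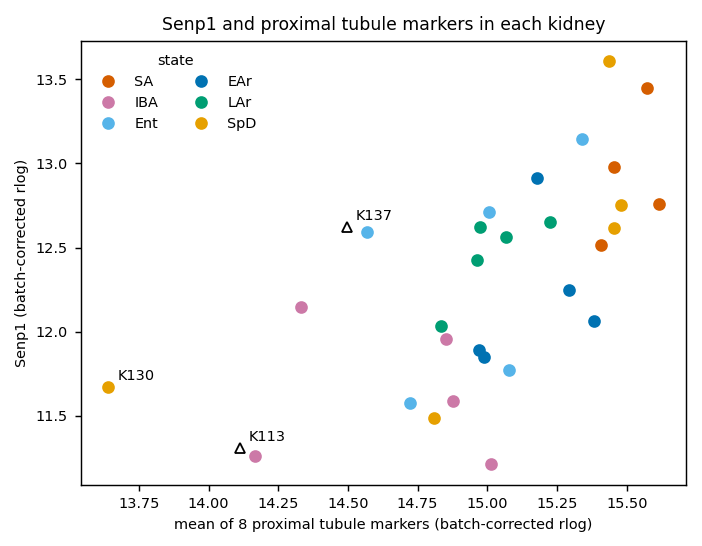
Senp1 (vertical axis) against the mean of 8 proximal tubule markers (horizontal axis), both batch-corrected rlog values, with a point for each kidney, colored by state, and open triangles for K137 and K113. The 4 SA kidneys in the tests lie at the upper right, with marker means of 15.41 to 15.62, and K130, K113, and the IBA kidney K104 have the lowest marker means, 13.64, 14.11, and 14.16, with Senp1 at 11.67, 11.31, and 11.26. The lowest Senp1, 11.21 in the IBA kidney K171, has a marker mean of 15.01, and K7, K137, and K8, with marker means of 14.33, 14.50, and 14.57, have Senp1 at 12.15, 12.62, and 12.59.

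Senp2, a protease of the nuclear pore and nucleus, was 9.57 ± 0.22 in SA (SD, n = 4), 9.71 ± 0.10 in IBA, 9.66 ± 0.12 in Ent, 9.65 ± 0.06 in EAr, 9.67 ± 0.10 in LAr, and 9.50 ± 0.07 in SpD (n = 5 each). Its sign was opposite to that of Senp1 in the seasonal comparison, where neither gene was called. Hibernation minus active of Senp2 was 0.14 (SE 0.0469, limma q = 0.0255) and did not pass 0.001. In the fit of experiment 2 alone it was 0.09 (q = 0.284), and in all 31 animals 0.15 (q = 0.0548). Without the SA kidney K139, whose Senp2 was 9.88, it was 0.19 (q = 0.0015), and without K141, at 9.39, it was 0.10 (q = 0.0945). SpD minus IBA was -0.21 (SE 0.0736, q = 0.0606). SpD kidneys ran from 9.44 to 9.57 and IBA kidneys from 9.61 to 9.81, so the states did not overlap, 1 gene of the 8 beside 6.51% of all genes.

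K113 and K137 stood apart from their states in part. K113, labelled LAr, was above all 5 other LAr kidneys for 4 of the 8 genes, below them for 1, and within their range for 3. Its Senp2 was 10.21, above the 9.80 of the next LAr kidney and above all 29 animals, and its Sae1 was 9.36, beside a highest LAr value of 9.12. Its Pias1 was 10.16, beside 10.00, and its Uba2 of 10.61 matched the highest LAr kidney to 2 decimals. Senp1 in K113 was 11.31, below the lowest other LAr kidney at 12.03, and its proximal tubule marker mean was 14.11, also below all other LAr kidneys.

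K137, labelled SA, was above the other 4 SA kidneys for 3 genes, Sumo2 at 11.04, Sumo3 at 11.70, and Sae1 at 9.19, and below them for Pias2 at 10.70, and lay within their range for 4. The distance to the nearest SA kidney was at most 0.05 for each of these. Its Uba2 of 10.45 lay with the active kidneys, and its Senp1 was 12.62, in the SA range, while its proximal tubule marker mean of 14.50 was below those of the other SA kidneys, 15.41 to 15.62. With both animals included, Uba2 had q = 0.00191 across states and Senp1 q = 0.068.

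No gene of the 8 differed between the sexes in the same fit, with limma q of at least 0.851. Few genes of the whole table did, 0.0233% at 0.001 and 0.218% at 0.05. The level of the genes across the 29 animals was loosely shared. Over the 28 pairs of genes, Pearson's r ran from -0.54 for Sae1 and Senp1 to 0.52 for Pias2 and Senp2, with 19 of 28 above 0 and a median of 0.08. The E1 subunits Sae1 and Uba2 had r = 0.32, Sumo2 and Sumo3 had 0.44, and the proteases Senp1 and Senp2 had -0.12. These are descriptions over animals that share states, kits, and tissue makeup.

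The genes most like each member over the 29 animals, by Pearson's r, reached r of 0.87 for Uba2 with Map4k3, 0.86 for Sumo2 with Snrnp27, 0.84 for Sae1 with Tnfrsf12a, 0.83 for Pias2 with Rest, 0.82 for Sumo3 with Ncbp2, 0.82 for Pias1 with Adam10, 0.81 for Senp1 with Acss3, and 0.74 for Senp2 with Zmynd11. Next for Uba2 came CUNH11orf58 at 0.85 and Lsm14a at 0.84. For Sae1 they were Ctbp2 at 0.81 and Krt18, a keratin, at 0.79. For Senp1 they were Pecr at 0.80, an enzyme of peroxisomal fatty acid metabolism, and LOC106144960 at 0.78. For the other genes, the next 2 were Cdc42 and Snapc5 for Sumo2, Wdr34 and a Cox6b1 row for Sumo3, Bach1 and Sox6 for Pias1, Rc3h2 and Dcaf10 for Pias2, and Cep120 and Cd2ap for Senp2.

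In the rest of the pathway, the protease Desi1 was higher in hibernation, as Uba2 was. Of 24 further SUMO genes listed, 23 were in the table. Across states 4 of the 23 were called, beside 9.34% of all genes. Among the 4 were the protease Senp7, which edits SUMO chains (limma q = 3.18e-04), and the protease Desi1 (q = 9.43e-04). In hibernation minus active 2 of 23 were called, both higher in hibernation, beside 9.73% of all genes called. In the 7 sequential steps 0 of 23 were called, beside 5.64% of all genes called in any of them. The difference of Desi1 was 0.33 (SE 0.0567, q = 1.17e-04), beside 0.17 for Uba2. Its call across states was lost in all 31 animals (q = 0.00636).

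Desi1 means were 11.91 in SA and 11.86 in SpD, and from 12.14 to 12.34 in the 4 hibernation states. Senp7 ran from 9.80 in SA to 9.30 in LAr. At 0.05, 10 of 23 passed in hibernation minus active, 6 higher and 4 lower, beside 33.4% of all genes. The median difference of the 23 was 0.04. The 8 genes split 4 and 4 in sign in that comparison, with a median of 0.02, and the median of all genes was 0.00.

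**Figure D4:**
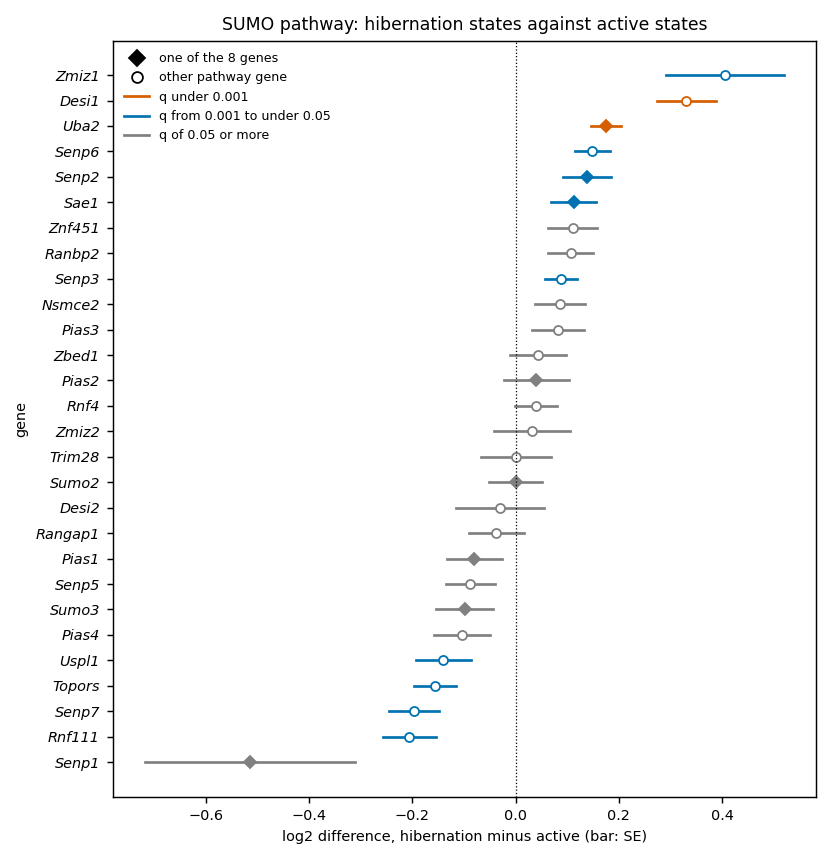
Fitted log2 difference between hibernation and active states (horizontal axis, bars are SE) for the 8 genes (filled diamonds) and 20 of the other SUMO pathway genes (open circles), ordered by difference (vertical axis). Uba2 and Desi1 are drawn with q under 0.001, at 0.17 and 0.33, and Senp1 is lowest at -0.51 with the longest bar.

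Conjugation of NEDD8 and UFM1, small modifiers with enzymes of their own, is set beside these genes. Of 22 genes listed 21 were in the table, and 3 were called across states, beside 9.34% of all genes. They were Dcun1d3 (limma q = 4.94e-04), Ufsp1 (q = 3.88e-04), and Cdk5rap3 (q = 1.47e-04). In hibernation minus active 3 of 21 were called, beside 9.73% of all genes. Of the 3, 2 were higher, Nae1 at 0.23 (q = 1.49e-04) and Cdk5rap3 at 0.32, and 1 lower, Dcun1d3 at -0.51. Nae1 is a subunit of the E1 of NEDD8, as Sae1 is of SUMO. No difference between this list and the SUMO genes was tested.

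The table as a whole was even. The medians of the 31 animals ran from 9.74 to 9.88, the correlations between animals from 0.922 to 0.992, and no value was missing. Defining kidney markers were present in all states, with 29 of 37 listed markers in the table. By limma across states, 0 of the 29 were called at 0.001 and 9 passed 0.05, beside 9.34% and 46.1% of all genes. At 0.05, 12 of the 29 were lower and 0 higher in hibernation than in the active states, beside 16.8% and 16.6% of all genes. Absent were Pvalb, Cd79b, Cd3e, Ltb, S100a8, S100a9, Mki67, and Top2a, so T lymphocytes, neutrophils, and dividing cells had no marker.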

How the data were processed

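The deposited table holds log2-scale values, batch-corrected rlog, for 31 kidneys and 12863 genes. The authors trimmed reads with cutadapt, took out mitochondrial reads with hisat2, ran Salmon against HiC_Itri_2 transcripts, summed them to genes, filtered on rlog, and took out the batch effect with limma. Counts are not in the table. limma 3.58.1 (R 4.3.3) was therefore fitted to the rlog values of all genes, with state, sex, and experiment as terms and an intensity trend, in place of the DESeq2 test of the study, in 29 animals. The script was tested on simulated data. P-values were Benjamini-Hochberg adjusted within each comparison, at 0.001. Animals were grouped by labelled state. Named genes are the 8 members, called pathway and comparison genes, cell type markers, and for each member the 3 genes of highest r. Some genes under this rule are not reported here. The genes, lists, and tests were chosen with earlier results of these data known. Alternatives were other terms, animals, weights, filters, centering, and thresholds. RefSeq matched 8 of 8 symbols. Figures were drawn with matplotlib 3.10.9 (Python 3.11.15).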

Additional observations from a re-analysis of the deposited data

How the results depend on the processing

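The number of the 8 genes called across states, 0, was 1 without the experiment term, without the sex term, with animal weights, with animals centered on their medians, and at a threshold of 0.01, each time Uba2, and 3 at 0.05. Leaving out each animal in turn gave 0 to 1, with 1 without K1 (IBA), K8 (Ent), K130 (SpD), or K141 (SA). At thresholds of 0.01 and 0.05 the counts were 2 and 3 for IBA/SA, 1 and 1 for SpD/IBA, 0 and 1 for Ent/IBA, 0 and 2 for IBA/LAr, and 1 and 3 for hibernation/active. At 0.05 the shares of all genes were 22.9% for IBA/SA, 11.9% for SpD/IBA, 13.1% for Ent/IBA, 18.0% for IBA/LAr, and 33.4% for hibernation/active. SpD/IBA ran from 0 to 1 with animals left out, 1 (Sae1) without K84. The count for hibernation/active was also 1 in experiment 2 alone, and that gene was Sumo3, not Uba2. The 23 other pathway genes called across states, 4, were 2 in all 31 animals, 8 with animal weights, 14 at 0.05 (beside 46.1% of all genes), and 2 (without K139) to 5 with animals left out. Those called in hibernation/active, 2, were 4 with animal weights, 8 at 0.01, 10 at 0.05 (beside 33.4% of all genes), and 2 to 4 (without K8) with animals left out. No share of all genes stands beside the counts at 0.01 or in the refitted alternatives, so those counts cannot be read against a background. The call of Desi1 across states was lost in 23 of the 29 fits with an animal left out. No called direction reversed in these alternatives. Of 54 differences of the 8 genes with q of at least 0.05, 88 of 2217 alternative values had the opposite sign. The cause of these changes was not tested. No paired analysis was possible because the animal numbers do not repeat across states. Without counts, depth could not be weighed, and 4 to 5 animals a state limit what small differences can be seen.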
